A study of Drosophila melanogaster with 18 samples.

Results

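Egg chambers of wild type Drosophila melanogaster at stages 9 to 10 of oogenesis were described from 6 arrays, which are all the arrays titled wild type among the 18 of the series. The flies were OreR females, 6 to 8 days old and fed yeast for 24 h at 23 °C before dissection, and they carried no driver and no transgene. Each replicate pooled 100 hand-dissected egg chambers, gathered in 5 collections of 20, and filled 1 Affymetrix array of the first Drosophila genome design. Wild type A (replicates 1 to 3) was extracted, labelled and hybridized in round 1, beside the 9 arrays of CY2-GAL4, UAS-lambda-Top (EGFR gain), CY2-GAL4, UAS-dnEGFR (EGFR loss) and CY2-GAL4, UAS-tkv* (BMP gain). Wild type B (replicates 1 to 3) was run in round 2, beside the 3 arrays of CY2-GAL4, UAS-Dad (BMP loss). Both wild type groups therefore had the same genotype, age, stage and feeding, and differed in the round. CY2-GAL4 is a driver used in follicle cells, and the 12 arrays that carry it enter here only where they are named. Replicates were pools from a single stock, so the p-values below measure the spread between these pools, which may be technical.

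An egg chamber is a cyst of germline cells, the oocyte and its nurse cells, inside a single layer of somatic follicle cells. At stages 9 to 10 the nurse cells load the oocyte with RNA and protein, the oocyte takes up yolk, and axis RNAs such as bicoid and oskar are held in place. Most follicle cells move over the oocyte, are patterned by EGFR and BMP signals and lay down the vitelline membrane, the inner layer of the eggshell. The chorion, its outer layer, is made afterwards from genes that are amplified in follicle cells.

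Values were read as ranks within each array. The 13966 probe sets other than Affymetrix controls were ordered by signal on an array, with rank 1 for the brightest, and the rank was turned into a percentile, on which 100 is the brightest. A percentile depends on how well a probe set captures its target as well as on how much RNA is present, so the order of genes is an order of brightness, not of molecules. For the 1216 genes with several probe sets the brightest and dimmest of them differed by a median of 21.8 points, with quartiles of 9.76 and 36.0, and 549 genes (45.2%) differed by over 25 points. Such a gene is given below by its brightest probe set, 1 per gene for 10825 genes. For a level that signal reaches without target, the 4 mouse control probe sets were used, a choice made after values had been seen. Their 24 values on the 6 arrays lay between 0.573 and 30.8, with a median of 11.25. Of all probe sets, 8170 (58.5%) lay above 30.8 on every array, 2541 (18.2%) on none and 3255 on some of them.

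Markers of follicle cells and of the germline had the highest medians, with low members among the first. Those of the other stages and tissues measured had lower medians. The 8 measured of 10 follicle cell markers had a median percentile of 99.8 (39.4 to 100.0). The yolk protein and vitelline membrane genes among them stood at 99.7 to 100.0, and tj, slbo and br at 40.8, 41.4 and 39.4. These 3 lay below the highest markers of hemocytes, testis, muscle and fat body. The 8 measured of 9 germline markers had a median of 95.4 (58.7 to 98.5). The 4 markers of older egg chambers, all chorion genes, had a median of 87.35 (60.8 to 95.5), and the germarium markers bam and bgcn stood at 69.9 and 6.59. Of the other cell types a dissection could carry along, the 4 measured neuronal markers had a median of 20.2, with 3 of them never above the mouse controls, and the 5 hemocyte markers had a median of 14.0 (3.999 to 55.3). Of these Hml, NimC1 and eater were never above the controls, while the prophenoloxidase genes PPO1 and PPO2 stood at 36.2 and 55.3, PPO2 above them on every array. The 5 testis markers ranged from 6.32 to 84.2 and the 3 gut markers from 27.9 to 38.3. The 4 measured muscle markers ranged from 27.5 to 71.1, the highest being Mlc2, a myosin light chain gene, and of the fat body markers Lsp2 stood at 56.5 and Fbp1 at 33.1. Fas3 and the photoreceptor opsin genes were not named on the array here. In pooled tissue, fewer cells of a type and less RNA per cell cannot be told apart.

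Eggshell and yolk genes gave the brightest signals of the egg chamber. Vm34Ca, which encodes a vitelline membrane protein, was the brightest of 13966 probe sets on all 6 arrays. The yolk protein gene Yp2 ranked 2, 4 and 3 on the wild type A arrays and 2 on each wild type B array. The vitelline membrane gene Vm26Aa ranked 4, 2 and 4 in A and 3 on each array of B. Each of these 3 genes was thus among the first 4 on every array. Yp1 ranked 3, 3 and 2 in A and 7, 5 and 6 in B, and Yp3, the dimmest yolk protein gene, ranked between 33 and 58. Yolk proteins are made by follicle cells and by the fat body outside the ovary, and reach the oocyte through the receptor encoded by yl. That receptor gene, a germline gene, stood at 97.1, 97.0 and 96.9 in A and at 93.5, 93.5 and 92.1 in B.

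The 15 genes whose dimmest array was brightest held 3 vitelline membrane genes, 2 yolk protein genes, the eggshell matrix gene dec, 7 cytosolic ribosomal protein genes, a polyubiquitin gene and dhd. The ribosomal protein genes were RpS20 (ranks 4 to 8), RpLP1 (5 to 14), RpS7 (11 to 22), RpS26 (15 to 21), RpL27 (14 to 27), RpS5b (15 to 24) and RpL10Ab (18 to 33). RpS5b is the ovary-rich copy of a ribosomal protein that has a second, ubiquitous gene. Vm32E, a further vitelline membrane gene, ranked 7 to 13, dec 12 to 19 and Ubi-p5E, the polyubiquitin gene, 9 to 21. The germline gene dhd, which encodes a thioredoxin of the oocyte, ranked 23, 32 and 32 in A and 17, 14 and 17 in B. Not every bright probe set can be named: of the 20 highest mean percentiles 8 had no single gene, and of the 570 probe sets in the top 5% of every array 133 had none. Signal was concentrated in these probe sets, on the linear scale: the 10 brightest held 3.804% to 4.11% of an array's signal, the top 5% held 50.5% to 51.95%, and those below the array's median held 2.91% to 3.17%.

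**Figure D1:**
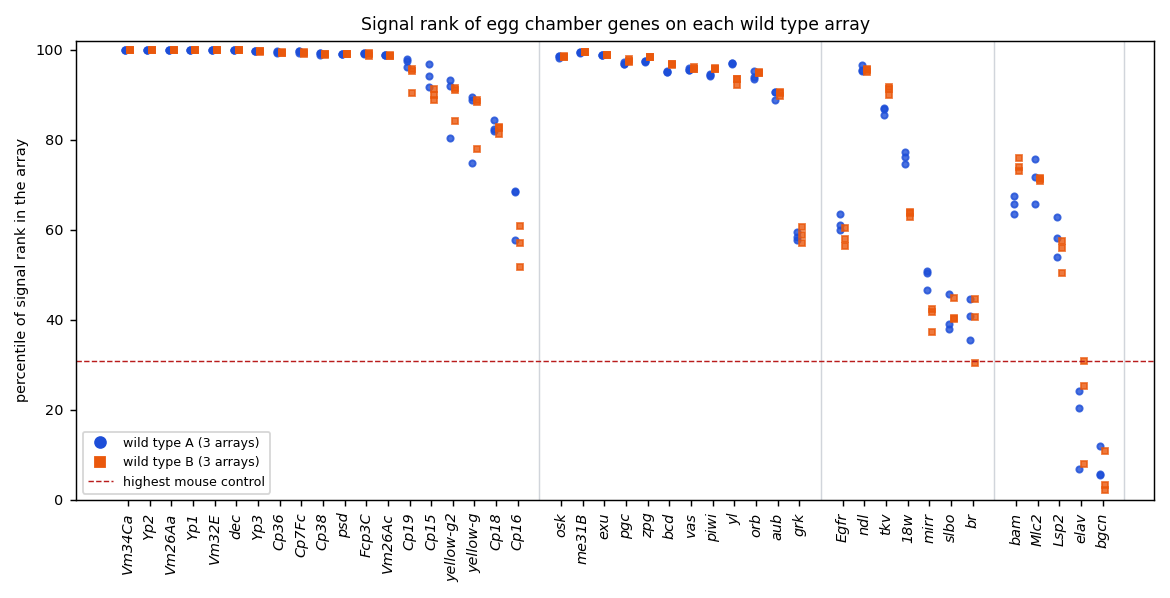
Percentile of signal rank (vertical axis, 100 = brightest) of named egg chamber genes on each of 3 wild type A (circles) and 3 wild type B (squares) arrays, with eggshell and yolk genes, germline genes, follicle cell signalling and patterning genes, and genes of other stages or tissues in blocks from left to right. Genes for the vitelline membrane and the yolk proteins crowd at 100, yellow-g, yellow-g2 and Cp16 spread over more than 10 points, and grk, mirr, slbo and br lie far below osk and bcd. The dashed line is the highest mouse control value, 30.8.

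Within the eggshell the vitelline membrane genes were bright and steady, and the chorion genes ran from the top of the scale to its middle. The 9 vitelline membrane and early eggshell genes had a median of 99.1, and the 7 chorion genes a median of 95.5, against 53.5 over all named genes. After Vm34Ca, Vm26Aa, Vm32E and dec came psd (99.1), Fcp3C (99.1) and Vm26Ac (98.8), each within 0.6 points over the 6 arrays. The remaining members, yellow-g2 (88.7) and yellow-g (84.7), which are needed for a firm eggshell, varied together from pool to pool. yellow-g stood at 74.9, 89.5 and 88.8 in A and at 88.8, 77.8 and 88.4 in B, and yellow-g2 at 80.3, 93.2 and 91.9 and at 91.1, 84.3 and 91.6. Replicate 1 of A and replicate 2 of B were thus the low arrays for both genes, by over 6 points, and the rounds overlapped.

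Chorion genes of the X chromosome cluster, Cp36 (99.4), Cp7Fc (99.4) and Cp38 (99.1), stood with the vitelline membrane genes. Those of the cluster on chromosome 3, which are known for later use, were lower: Cp19 at 95.5, Cp15 at 92.1, Cp18 at 82.6 and Cp16 at 60.8. Cp16 stood at 57.8, 68.6 and 68.4 in A and at 57.2, 60.9 and 51.8 in B, and Cp15 at 91.7, 94.1 and 96.9 and at 91.3, 89.9 and 88.8. Neither was called between the rounds by limma (adjusted p = 0.21 and 0.090). The rounds overlapped in Cp16 and did not in Cp15. The labels give the stage only as the range 9 to 10.

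Germline lists had medians below those of the eggshell lists, while members of the 2 kinds of list overlapped. The 25 oocyte axis and RNA localization genes had a median of 89.7 (54.5 to 99.5), the 25 germ plasm and piRNA pathway genes a median of 87.2 (50.8 to 98.6) and the 22 maternal embryonic patterning genes a median of 89.1 (31.1 to 99.8). All 25 of each of the first 2 lists, and 20 of the 22 in the last, stood above the mouse controls on every array, against 6707 of 10825 named genes. The brightest localization genes were me31B (99.5), a helicase of stored RNA particles, exu (98.9), which acts in bicoid RNA localization, and osk (98.5), the organizer of germ plasm. osk stood at 98.6, 98.3 and 98.6 in A and at 98.3, 98.4 and 98.5 in B, so the rounds overlapped. grk, whose protein is the EGFR ligand made in the oocyte, stood far lower at 59.6, 58.3 and 57.7 in A and at 60.6, 58.9 and 57.1 in B, and the rounds overlapped there too. The lowest localization gene was fs(1)K10, which acts in the placement of grk RNA, at 54.5.

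The remaining germline lists held high and low members alike. Among germ plasm and piRNA genes pAbp (98.6), pgc (97.3), vas (95.8), piwi (95.04) and aub (90.1) were high, and rhi (54.3) and cuff (50.8), whose proteins mark piRNA clusters, were lowest. Among maternal patterning genes dhd, smg (98.5), cad (98.5) and the maternal tubulin gene alphaTub67C (98.2) were high, while dl, the gene of the dorsal-ventral factor Dorsal, stood at 31.1 with 1 probe set. The follicle cell gene tsl, a terminal patterning factor made by few cells, stood at 50.7. Among early differentiation genes the germline gap junction gene zpg stood at 97.9, bam at 69.9 and bgcn at 6.59, and the last was never above the mouse controls. Both bam and bgcn act in the germarium, which precedes the dissected stages.

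Meiosis genes spanned most of the scale, and cell cycle genes its upper part. The meiosis list of 15 had a median of 59.6, ranging from 15.6 (mei-P22, of early recombination) to 99.1 (mtrm, an inhibitor of Polo kinase in the oocyte). mtrm kept within 99.0 to 99.1 on all 6 arrays, and nod (90.96), twe (87.5) and cort (78.4), which act in the later meiotic divisions, lay above the recombination genes mei-W68 (43.7), ord (28.5) and mei-P22. The 16 mitotic genes had a median of 87.2, with CycB at 99.4 and CycB3 at 98.0 as the brightest. The 27 DNA replication genes had a median of 88.3 and none below 66.3, led by PCNA (97.0), the sliding clamp, and RnrL (96.0), a ribonucleotide reductase subunit.

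**Figure D2:**
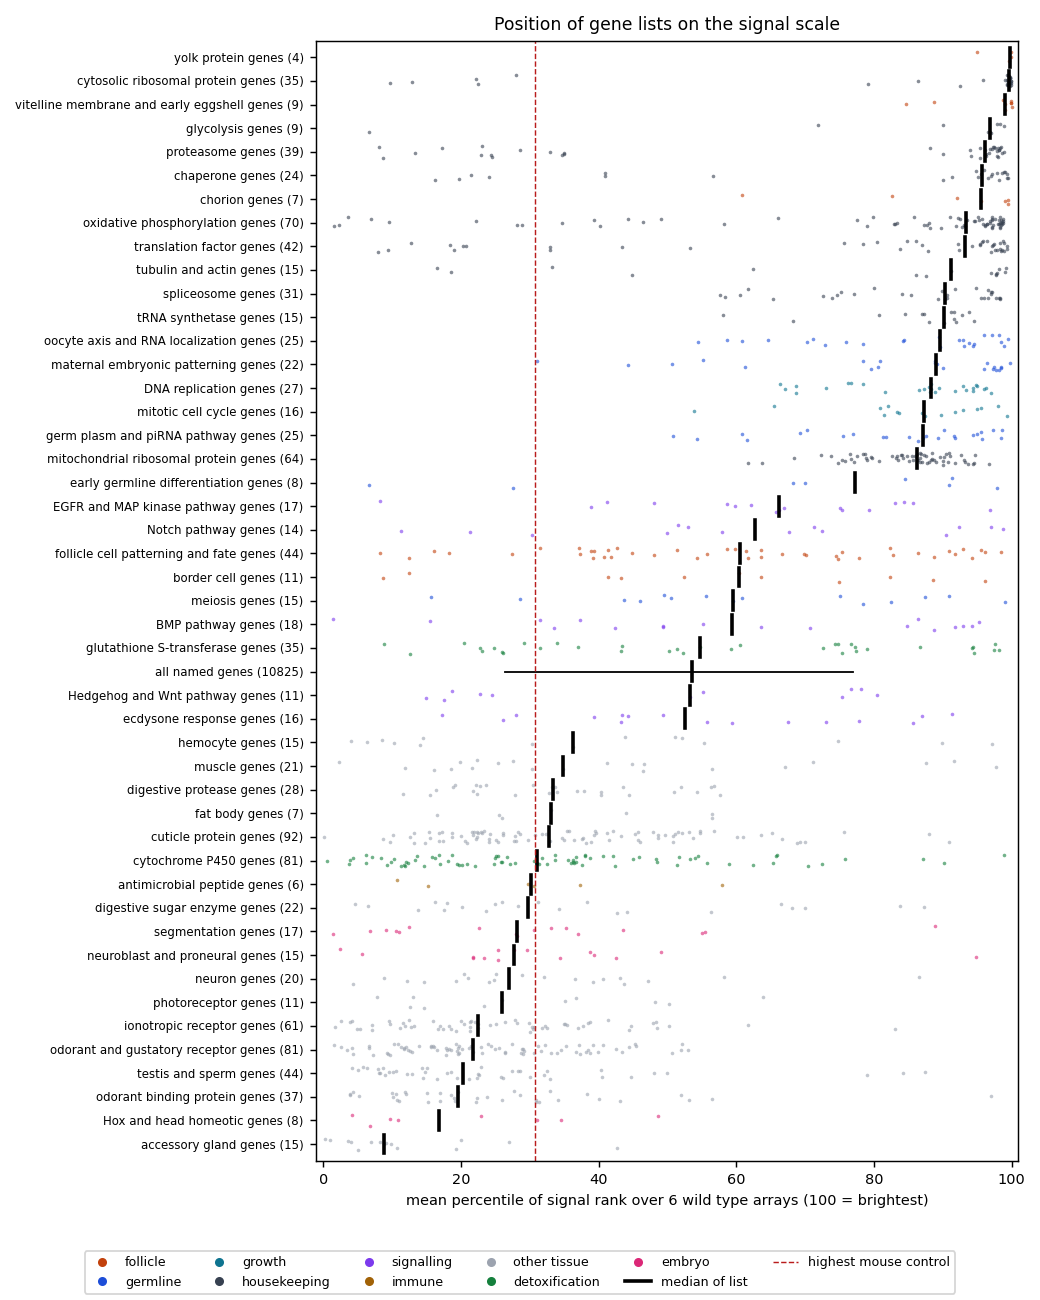
Mean percentile over the 6 wild type arrays (horizontal axis) of each member of 46 gene lists, with the number of members in brackets, ordered by list median (black bar). Lists from yolk proteins down to early germline differentiation have medians of 99.8 to 77.3, lists for receptors, testis and homeotic genes have medians under 30.8, the highest mouse control value (dashed), and the bar of all named genes at 53.5 carries a line over its quartiles.

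Growth and energy genes were bright as well, with low members inside several lists. Cytosolic ribosomal protein genes had a median of 99.6 (35 members), glycolysis genes 96.9 (9), proteasome genes 96.1 (39), chaperone genes 95.8 (24), oxidative phosphorylation genes 93.4 (70), translation factor genes 93.3 (42), spliceosome genes 90.3 (31) and tRNA synthetase genes 90.2 (15). Mitochondrial ribosomal protein genes were dimmer, with a median of 86.3, but all 64 stood above the mouse controls on every array. All 13 proteasome genes below percentile 50 and 12 of the 14 oxidative phosphorylation genes below it had the symbol of a second copy of a subunit, a division drawn by the form of the symbol after values had been seen. The 13 proteasome genes with a symbol ending in T or R, copies known mainly from the testis, had a median of 24.4 (8.16 to 35.0), and none was above the mouse controls on every array. The other 26 proteasome genes had a median of 97.3 (88.2 to 98.9). Likewise the 14 oxidative phosphorylation genes with an L at the end of the symbol had a median of 37.0 (1.63 to 66.1), and the other 56 a median of 96.0. A different low member was COX7C, a cytochrome oxidase subunit gene with a single probe set, at 2.74 to 5.18. In the ribosomal protein list RpL10Ab stood at 99.8 and its copy RpL10Aa at 9.69, and RpS28a at 22.2, and the 3 ribosomal protein genes with a symbol ending in -like ranged from 12.9 to 92.6, so no such division by symbol held in that list. In the pair of hexokinase genes Hex-A stood at 71.9 and Hex-C at 6.71. Copies of near-identical sequence could share signal, and RpS5b shows that a copy can also be at the top.

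Signalling and patterning lists had medians in the middle of the scale, and their members were spread over most of it. The EGFR and MAP kinase list of 17 had a median of 66.2, the Notch list of 14 a median of 62.8, the follicle cell patterning list of 44 a median of 60.6, the BMP list of 18 a median of 59.4 and the Hedgehog and Wnt list of 11 a median of 53.3. In the BMP pathway the receptor genes put (94.2), sax (93.0) and tkv (88.7) and the Smad gene Mad (91.7) were high, and the ligand gene dpp stood at 34.5, 33.1 and 20.0 in A and at 33.6, 33.5 and 34.6 in B, near the mouse controls. The genes of proteases that free BMP ligands, tld (15.5) and tok (1.46), were lower still. In the EGFR pathway Cbl, a ubiquitin ligase gene, stood at 96.8, Egfr itself at 59.8 and the feedback inhibitor genes kek1 and aos at 38.9 and 8.20. In the Notch pathway the coactivator gene mam stood at 98.8 and the inhibitor gene numb at 97.0, while 3 of the 5 E(spl) target genes stood between 11.3 and 30.3 and the other two at or just above 50. In the JAK/STAT pathway Stat92E stood at 96.2 and its receptor gene dome at 82.3, with the ligand genes upd1 and upd2 at 12.5 and 8.72. Of the follicle cell genes with known local patterns, 18w stood at 69.8, mirr, a dorsal patterning gene, at 44.9, slbo, the border cell factor, at 41.4, and br, the factor of the roof of the dorsal appendages, at 39.4 by the highest of its 4 probe sets.

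Steady genes in the middle of the scale belonged to no single function. The 8 named genes nearest percentile 50 with all 6 values within 5 points were Evi5, cyr, Sp1, Upf1, HP6, Naprt, stw and snky. Upf1, the helicase of nonsense-mediated decay, stood at 50.1, 47.9 and 47.4 in A and at 52.04, 51.7 and 50.4 in B. Naprt, an enzyme of NAD synthesis, stood at 52.1, 49.3 and 48.6 and at 48.8, 51.0 and 51.5. The set also holds stw, a potassium channel gene, and snky, known from sperm, so a percentile of 50 with a narrow spread is found in genes of other tissues too.

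Lists of genes of other tissues and of the later embryo had low medians, and hold only a part of the genes at the low end. Medians were 33.1 for fat body genes, 32.9 for 92 cuticle protein genes, 28.2 for 17 segmentation genes, 27.0 for 20 neuron genes, 22.5 for 61 ionotropic receptor genes, 21.7 for 81 odorant and gustatory receptor genes, 20.3 for 44 testis and sperm genes, 19.6 for 37 odorant binding protein genes, 16.9 for 8 homeotic genes and 8.79 for 15 accessory gland genes. Of the accessory gland genes 12, and of the testis genes 20, were never above the mouse controls, against 1783 of 10825 named genes. Not every list stood apart in this: the share was 20.7% for cuticle protein genes and 14.3% for fat body genes, against 16.5% of named genes. The 8 lowest named genes held all 6 values at 1.4 points or below: Cpr67Fa2, a cuticle protein gene, Acp26Aa, an accessory gland gene, fest, Cyp316a1, dan, beat-Ic, jb and bnk. bnk encodes a protein of embryo cellularization, a stage that follows egg laying.

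Single members of these lists stood far from the rest. Obp19c, filed with the odorant binding proteins, stood at 96.6, 98.0 and 98.0 in A and at 97.8, 97.4 and 94.4 in B, while the next member of its list, Obp99a, stood at 56.5. The neuron list had Csp, a synaptic vesicle cochaperone gene, at 86.5, the segmentation list had hb, which is also maternal, at 88.9, and the proneural list had da, a partner factor used in many tissues, at 94.8. The testis list had bol (84.2) and twe (87.5), which act in germ cells, and the cuticle list had TwdlJ (90.9) and Ccp84Ae (88.0). The muscle list was led by actin gene Act87E (97.8), whose coding sequence is close to those of the other actin genes, so its signal may be shared.

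Ranks were most repeatable at the top of the scale and least so from percentile 10 to 40. Over 10 bands of 10 percentile points, the share of probe sets whose 6 values lay within 5 points was 26.7% below percentile 10, between 2.30% and 7.50% from 10 to 50, between 20.7% and 53.0% from 50 to 90, and 94.5% above 90. The median SD within a round was 7.28 points at percentiles 20 to 30 and 0.313 points above 90. Of the 698 places in the top 5%, 570 (81.7%) were held by the same probe sets on every array, and of the 698 places in the bottom 5% 120 (17.2%). Between the means of the rounds, 88.3% of the top 5% was shared, 43.2% of the middle 5% and 59.7% of the bottom 5%. A span in points is compressed at both ends of a rank scale, so these shares describe ranks and not amounts.

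**Figure D3:**
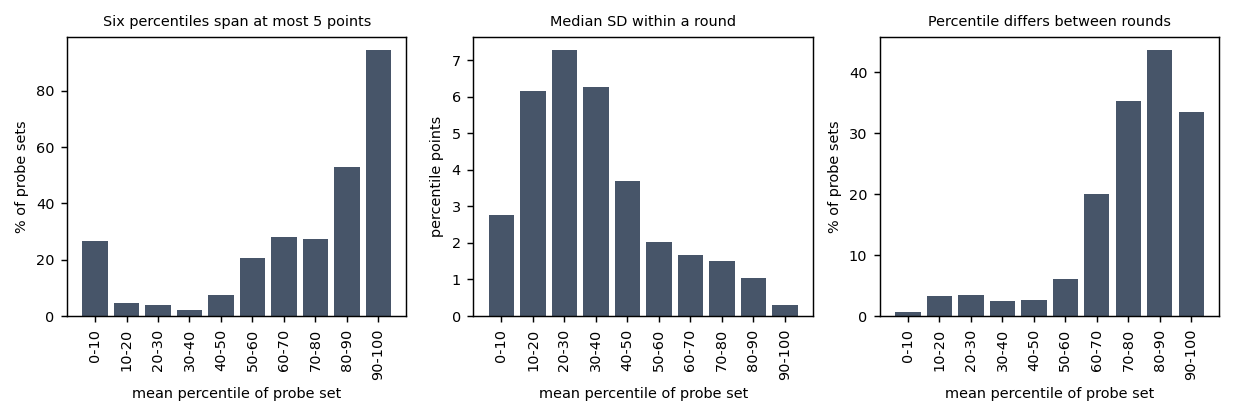
Repeatability of percentiles in 10 bands of mean percentile (horizontal axes, 0 to 100) over 13966 probe sets: the percent of probe sets whose 6 values span at most 5 points (left), the median SD of percentiles within a round, in points (middle), and the percent called different between wild type A and wild type B (right). The first peaks at 94.5% in the highest band, the second at 7.28 points at 20 to 30, and the third at 43.6% at 80 to 90.

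Arrays of each wild type group were more alike among themselves than with the other groups compared, in wild type B by a narrow margin. Spearman correlations over all probe sets were 0.967 to 0.971 within wild type A (3 pairs), 0.960 within wild type B (3 pairs) and 0.952 to 0.956 between them (9 pairs). Wild type A stood at 0.954 to 0.965 with the driver genotypes of its own round (27 pairs), with a median of 0.962, which lies above every value between A and B and every value within B. Wild type B stood at 0.954 to 0.959 with the driver genotype of its round (9 pairs), a range that overlaps the values between A and B. Between the means of the rounds the correlation was 0.976 over all probe sets, 0.958 over those at or above percentile 50 and 0.858 over those below it. On the deposited log2 scale array medians were 4.48 to 4.50 in A and 4.02 to 4.04 in B, and the median difference over all probe sets was 0.44, a shift that ranks remove.

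Ranks also differed between the rounds in single genes. By limma on the percentiles, 2124 of 13966 probe sets (15.2%) had an adjusted p under 0.05, 1029 (7.37%) higher in A and 1095 (7.84%) higher in B. At an unadjusted p under 0.05 there were 3970 (28.4%), and in 4985 (35.7%) the arrays of the rounds did not overlap. Without wild type A replicate 2 the count was 1243, and without wild type A replicate 3 it was 1306. With 1 probe set per gene the shares were 16.5% in either direction, 8.05% higher in A and 8.42% higher in B, and most differences were small: 368 called probe sets (2.63%) differed by at least 10 points. The share called was 0.712% below percentile 10 and 43.6% at 80 to 90, where the spread within a round was small. The round and the group cannot be told apart, since each wild type group lay in 1 round. Control probe sets moved with the round: the added DapX transcript, by its 3' probe set, stood at 91.01 to 93.02 in A and 54.7 to 58.1 in B, and 18S ribosomal RNA, by its 3' probe set, at 80.9 to 95.5 and 53.0 to 59.8. The 3' minus 5' difference of the Gapdh controls was 1.98 to 2.07 on the log2 scale in A and 1.39 to 1.60 in B, while those of the actin (1.03 to 1.20 and 1.08 to 1.28) and eIF-4a controls (1.61 to 1.91 and 1.65 to 1.75) overlapped. Their part in the differences between the rounds was not tested.

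**Figure D4:**
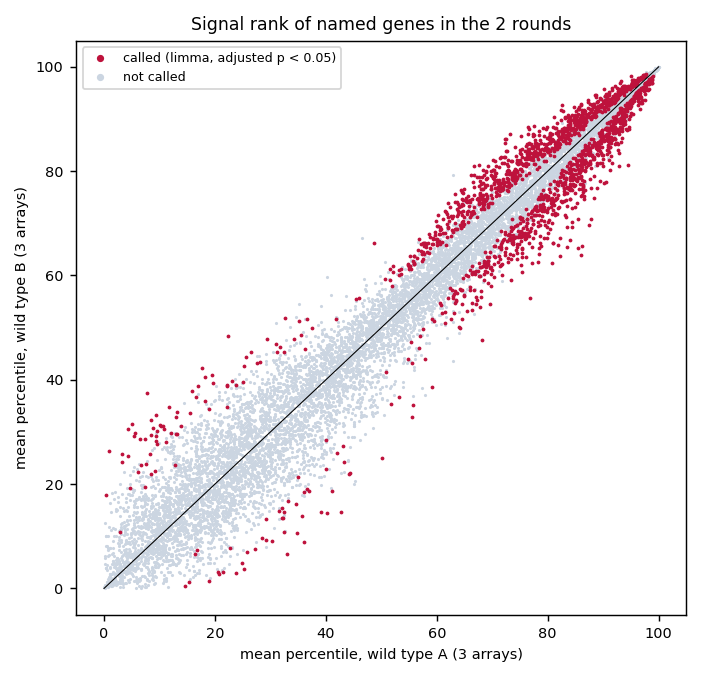
Mean percentile of 10825 named genes over 3 wild type B arrays against that over 3 wild type A arrays, with genes called by limma at an adjusted p under 0.05 in red and the line of equal percentiles in black. Called genes lie on both sides of the line, 871 higher in A and 912 higher in B, and most stand above percentile 60 on both axes.

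The genes with the widest gaps lay low on the scale. The 8 largest called differences towards A with no overlap of arrays included CG42564 (28.2 points), Ugt303B3 (27.2), the heat shock cognate gene Hsc70-2 (26.4), lilli (25.8) and zld (22.6). zld, whose protein is the maternal activator of the embryonic genome, stood at 51.6, 56.3 and 58.9 in A and at 25.7, 33.2 and 39.9 in B (difference 22.6 ± 4.2, SE, adjusted p = 0.017). The 8 towards B included CG13526 (-29.7), kek4 (-26.4), Mal-A6 (-26.2), Con (-25.5) and Ir67b (-23.9). A second kek4 probe set of similar brightness moved towards A by 13.95 points and was not called by limma (adjusted p = 0.14). Con, an adhesion gene of muscles and nerves, stood at 1.25, 0.319 and 0.899 in A and at 24.7, 29.0 and 25.3 in B, all under the highest mouse control. The calls of zld, Hsc70-2 and Ir67b were lost when 1 array was left out, with adjusted p of up to 0.068, 0.054 and 0.068.

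Restricted to the 6707 genes above the mouse controls on every array, a restriction made after values had been seen, 1665 (24.8%) were called. The widest gaps there were l(2)dtl (22.1 points), CG7239 (21.1), CG16868 (20.7), LBR (20.6), e(y)3 (20.6) and cic (20.2) towards A, and dpy (-19.1), Mitf (-17.5), LysD (-15.2), RASSF8 (-14.3) and Nca (-13.8) towards B. cic encodes Capicua, a repressor that EGFR signalling relieves in follicle cells, and stood at 85.8, 82.6 and 88.1 in A and at 64.0, 66.2 and 65.7 in B (difference 20.2 ± 1.5, SE, adjusted p = 0.0014). l(2)dtl, a gene of replication licensing control, stood at 85.6, 85.9 and 86.4 in A and at 64.2, 66.2 and 61.2 in B (22.1 ± 1.3, 0.0013). The rounds did not overlap in either gene. cic, Mitf and RASSF8 have 2 probe sets each, and the values here are of the brighter one.

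Egg chamber genes among the calls came from most roles, read against 16.5% of named genes. None of the 9 vitelline membrane and 7 chorion genes was called by limma, where an unadjusted p under 0.05 was reached by 0 and 1 of them, and of the yolk list yl was, with 3.9 ± 0.4 points more in A (adjusted p = 0.0027). On log2 values centred on each array's median 3 of the 9 vitelline membrane genes and all 4 of the yolk list were called, all higher in A, so calls at the top of the scale depended on the scale used. Of the germline lists, 8 of 25 oocyte axis genes were called (3 higher in A, 5 in B), 10 of 25 germ plasm and piRNA genes (2 and 8) and 7 of 22 maternal patterning genes (5 and 2). Most members of these lists stood above percentile 80, where 33.5% to 43.6% of all probe sets were called. bcd stood at 95.2, 95.1 and 95.2 in A and at 96.8, 96.8 and 96.7 in B (difference -1.6 ± 0.2, adjusted p = 0.0025), and piwi at 94.3, 94.1 and 94.6 and at 95.9, 95.7 and 95.6 (-1.4 ± 0.2, 0.0076). In both the rounds did not overlap, and the gaps were under 2 points. hb, the maternal gap gene, stood at 91.3, 92.7 and 93.1 in A and at 85.6, 85.1 and 85.6 in B (7.0 ± 0.5, 0.0014), and stau, the RNA-binding partner of osk and bcd RNA, by its brighter probe set at 67.8, 68.5 and 68.6 and at 76.3, 78.6 and 78.0 (-9.4 ± 0.8, 0.0020). Its other probe set, of similar brightness, went the other way, at 79.6, 73.2 and 73.8 in A and at 72.6, 69.2 and 61.4 in B. By limma that difference was not called (7.8, adjusted p = 0.17), so the direction of stau is not settled.

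Among receptor genes used in follicle cells, 18w and dome were higher in A. The Toll-family receptor gene 18w stood at 77.3, 74.6 and 76.2 in A and at 62.8, 63.8 and 64.0 in B (12.5 ± 1.0, SE, adjusted p = 0.0016), and dome at 88.1, 87.8 and 87.6 and at 75.6, 79.1 and 75.9 (10.98 ± 0.96, 0.0019). A dimmer dome probe set, with a mean of 44.0, was higher in A by 4.0 points and was not called by limma (adjusted p = 0.52). The brighter tkv probe set stood at 86.8, 87.0 and 85.4 in A and at 91.7, 89.99 and 91.2 in B (-4.6 ± 0.6, 0.0063), but its other probe set was called the opposite way, so tkv has no settled direction. Of the 44 follicle cell patterning genes 4 were higher in A and 4 in B, and of the 18 BMP pathway genes 3, tkv among them, were higher in B and none in A. Over all named genes 8.05% were higher in A and 8.42% in B. The shares called in either direction, 18.2% and 16.7%, lay near the 16.5% of all named genes, so the counts are not a result about these lists. drk, the adaptor gene of the EGFR pathway, stood at 82.1, 74.8 and 76.0 in A and at 88.2, 88.96 and 88.5 in B (-10.98 ± 1.8, 0.012). mirr, Egfr, grk, osk, slbo and br were not called, with adjusted p of 0.079 for mirr, whose rounds did not overlap, and 0.28 to 0.93 for the rest. These calls are of the brightest probe set, and 1 of the 3 dimmer br probe sets was called, at 4.59, 4.14 and 0.927 in A and at 21.3, 24.3 and 16.6 in B (-17.5, 0.011), all under the highest mouse control.

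Several housekeeping lists had more calls in 1 direction than in the other. In the bands from percentile 80 to 90 and 90 to 100, where most of these genes stood, 21.6% and 16.8% of all probe sets were higher in A and 22.03% and 16.7% higher in B, against 8.05% and 8.42% of named genes. Mitochondrial ribosomal protein genes had 4 of 64 higher in A and 17 higher in B, with mRpL54 at 73.1, 76.4 and 79.2 in A and at 85.0, 84.4 and 86.1 in B (-8.9 ± 1.5, adjusted p = 0.013). Oxidative phosphorylation genes had 10 of 70 higher in A and 3 in B, proteasome genes 6 of 39 and 1, tRNA synthetase genes 7 of 15 and 2, glycolysis genes 4 of 9 and 0, and DNA replication genes 8 of 27 and 3. The counts of oxidative phosphorylation and proteasome genes higher in A lay under the share of the bands, and so are not a result about these lists. Mitochondrial ribosomal protein genes were called in 32.8% in either direction, under the 43.6% of all probe sets at 80 to 90. Their count higher in B lay near the share of that band, and is not read as a result about the list. The larger side of each of these 6 lists was the same on normal scores of the ranks, on median-centred log2 values and on quantile-normalized log2 values. It was not so for cytosolic ribosomal protein genes, which had 0 of 35 higher in A and 1 in B on percentiles, 10 and 0 on median-centred values and 3 and 8 on quantile-normalized values. Members of a list share their rounds and arrays and are not independent, and no list was tested as such.

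Probe sets of the same gene could move in opposite directions between the rounds. Of the 1216 genes with several probe sets, 276 had a call, 37 had at least 2, and in 11 of these 37 the called probe sets were opposite. The examples egh and loco were picked from the 11 after their values had been seen. The gene egh had 1 probe set at 80.2, 80.2 and 82.0 in A against 62.0, 62.0 and 63.2 in B, and another at 62.6, 59.3 and 61.5 against 69.1, 67.8 and 67.1. In tkv the dimmer probe set was higher in A by 4.9 ± 1.1 points (SE, adjusted p = 0.027), where the brighter was higher in B. loco, a regulator of G protein signalling, had probe sets at 72.4 to 73.7 and 32.3 to 39.2 in A, and at 66.8 to 67.0 and 47.7 to 48.1 in B. For these genes the direction between the rounds depended on which probe set was read, and the sources used here do not state the transcript parts that the probes match.

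**Figure D5:**
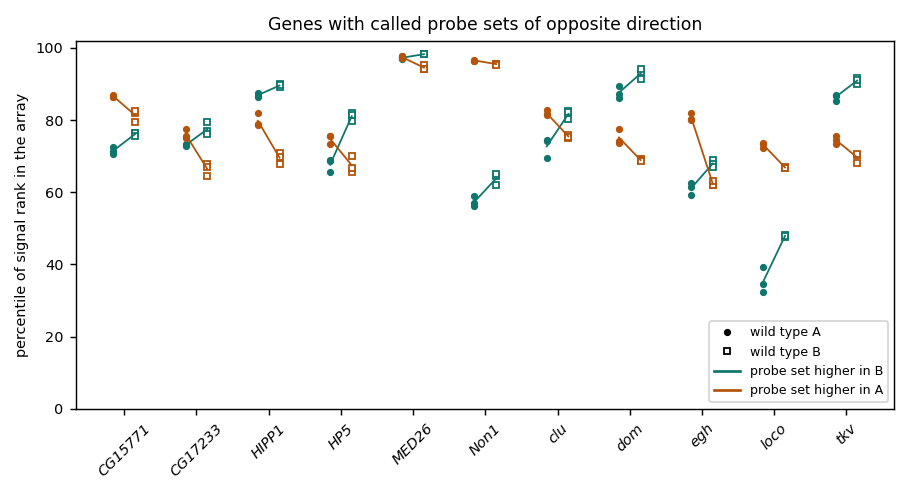
Percentile on each wild type A array (filled circles) and wild type B array (open squares) for the called probe sets of the 11 genes whose called probe sets moved in opposite directions, with a line from the mean of A to the mean of B. Lines of each gene run in both directions, with the widest changes in egh, HP5 and loco and narrow ones in MED26.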

How the data were processed

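RNA of 6 wild type pools was read from the authors' deposited value table, which holds log2 expression values of 14010 probe sets, 1 column per array. The base was taken from the highest value, 13.3, and ranks do not depend on it. Per the submitters' processing notes the affy package was used, with no version. The sources used here name no background correction and no normalization, and the array medians differ between rounds by far more than within them. Groups came from the sample titles.

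Of the probe sets other than 44 controls, 12442 had 1 gene in the platform annotation, 327 several and 1197 none. Symbols were updated through a RefSeq table of Release 6 plus ISO1 MT, 12393 by gene number and 42 by symbol, with 7 left as given. Percentiles were computed within each array, and wild type A was compared with wild type B by limma 3.58.1 in R 4.3.3 with an intensity trend, two-sided, with Benjamini-Hochberg adjustment over 13966 probe sets and calls at 0.05. Differences carry SE, over 3 arrays a group. A single percentile given for a gene is its mean over the 6 arrays, unless a round is named. The number of arrays limits the precision. The script was tested on simulated data.

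Named genes were drawn mainly from the 15 highest and 8 lowest genes, 8 in the middle and the 8 widest differences each way. All members of lists of up to 12 genes were added, and a fixed set. Longer lists gave the 3 highest, the 3 lowest, the median and 3 called members. The text prints only a part of these genes. The members and lists were chosen with earlier results of these data known.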

Additional observations from a re-analysis of the deposited data

How the results depend on the processing

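Between wild type A and wild type B, 2124 probe sets were called, 1029 higher in A and 1095 higher in B. Without an intensity trend the counts were 1161, 578 and 583, and on log2 values as deposited, where the shift between rounds remains, 5367, 5197 and 170. With each array left out in turn they were 1243 to 1765, 596 to 832 and 647 to 940. Robust moderation, normal scores, median centring, quantile normalization, all 18 arrays, representative probe sets and the removal of dim probe sets gave 1831 to 2709 calls. Same-numbered arrays of the rounds did not deviate together (r = 0.0071, -0.0194 and 0.0052), so they share only a number, and with it as a replicate block there were 1382 calls, 671 higher in A and 711 in B. On the deposited values the differences of 17 named genes changed sign and became, in log2, 0.04 for Csp, 0.12 for Cyp6a22, 0.014 for Hsc70-3, 0.023 for bcd, 0.30 for bip1, 0.032 for cort, 0.12 for eIF2Balpha, 0.079 for ftz-f1, 0.165 for mRpS7, 0.15 for piwi, 0.051 for spn-F, 0.038 for tej, 0.022 for thr, 0.027 for tkv, 0.25 for tsu, 0.016 for twe and 0.11 for usp. Of 123 called named genes, 77 kept their call with each array left out. Probe sets in the top 5% of every array numbered 570, or 1127 with 10 in place of 5, 290 without dim probe sets and 573 to 579 with an array left out. The bottom 5% held 120, or 372, 14 and 141 to 151, and spans within 5 points 3615, or 7810, 1310 and 4105 to 4273. These settings differ in band width, probe sets or arrays. Without dim probe sets the 6983 left were ranked anew, so their bands are not those of the full scale. With the dimmest probe set of each gene 18 of 46 list medians moved. Promoter motifs by band were not run, for want of promoter sequences in the sources used here.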

Other observations

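Enzymes of detoxification, hormone response and immunity were described by their percentiles over the 6 wild type arrays. The 35 glutathione S-transferase genes had a median of 54.8 and 6 members at or above 90, among them GstD1 (98.2), Mgstl (97.7) and GstE6 (97.5), while GstD5 stood at 8.79. The 81 cytochrome P450 genes had a median of 31.0, and 27 of them stood above the mouse controls on every array. Cyp6a19 was far above the rest of that family, at 98.9, 98.96 and 98.9 in wild type A and 98.7, 98.9 and 98.9 in wild type B, followed by Cyp4e2 (90.1) and Cyp6a22 (87.1). Among 16 ecdysone response genes, with a median of 52.6, the nuclear receptor genes ftz-f1 (91.3), Hr78 (86.97) and usp (77.8) stood above EcR (55.8), and the hormone synthesis genes shd (28.04) and dib (17.2) near or under the mouse controls. The 6 antimicrobial peptide genes had a median of 30.2, with DptB highest at 57.9. None was called between the rounds by limma, and 1 of 6 had an unadjusted p under 0.05, against 28.4% of all probe sets. At percentiles 20 to 30 and 30 to 40, 3.46% and 2.51% of all probe sets were called, so the count is not a result about this list.

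Among the 11 Hedgehog and Wnt genes 2 were called, 1 higher in A and 1 higher in B. That is 18.2%, near the 16.5% of all named genes, so the count is not a result about this list. The call of Su(fu) held with each array left out, with an adjusted p of up to 0.042 by limma. The other called gene was hh, the gene of the secreted ligand. It stood at 14.9, 1.99 and 2.73 in wild type A and at 28.5, 25.8 and 31.6 in wild type B (difference -22.1 ± 4.2, SE, adjusted p = 0.019 by limma). Of its 6 values 5 lay under the highest mouse control value of 30.8, and the call was lost when 1 array was left out, with an adjusted p of up to 0.069.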
